A study of Mus musculus with 6 samples.

Results

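The subject is a set of long non-coding RNA loci that the array design names by position and not by a transcript. A probe belonged to the set when its name in the scanner files was a chromosome, a start and an end, with a suffix F or R for the strand. Of 56605 probes that are not controls, 4276 (7.55%) were members, and they stood for 3094 loci on 19 chromosomes. Another 174 probes of this kind lie on the sex chromosomes and were left out. Positions are those of the mouse build mm9 (NCBI37), which the file headers name. No gene annotation of that build was used here, so the loci carry no gene names below, and whether each lies between genes or overlaps one was not checked. The files used here hold no probe sequences.

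Gene expression was measured with 1-colour (Cy3) Agilent arrays in male mouse lung, with 2 arrays in each of 3 groups. Myofibroblasts, contractile matrix-making cells, were sorted as CD49e+ Sca1- Lin- cells from lung treated with bleomycin, a drug used to injure the lung and induce fibrosis. Untreated lung gave the steady-state fibroblasts, taken as CD140a+ Lin- cells, and the controls were homogenates of untreated lung. The labels give 50000 cells for each set and 5.8 ng of labelled RNA. The labels give no strain and no age. Gate and treatment changed together between the sorted groups and cannot be told apart. Whether the 2 samples of a group are separate animals or 1 pool is not stated, so every p-value below reflects only how far these samples lie apart, and that spread may be technical.

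Long intergenic non-coding RNAs are transcripts that resemble messenger RNA in capping and splicing but have no long open reading frame. Many were first mapped as stretches of chromatin carrying the histone marks of an active promoter and of elongating polymerase outside known genes, which leaves the ends and often the strand of the transcript uncertain. They are known for low levels and for a tighter restriction to particular tissues or cell types than coding transcripts have. A domain found that way may therefore be read by probes to either strand, some of which have no transcript to bind.

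Most loci were read by 1 probe (2155 loci), 761 by 2 and 178 by 3 or more, with 8 at most. Probes to both strands existed for 812 loci, to F alone for 1178 and to R alone for 1103, and 1 locus had no strand. The sources used here do not state what F and R mean relative to the transcript. Lengths ran from 62 to 538251 bp with a median of 7328 bp, and 895 loci were shorter than 1000 bp. Chromosome 1 had the most loci (240) and chromosome 19 the fewest (71). The loci are not separate units, because many overlap. When overlapping loci were merged, regardless of strand, 2051 regions were left, of which 636 held 2 or more loci and 1679 loci in all. Up to 13 loci shared a region.

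A probe counted as detected on an array when the scanner software marked it as well above background. By that measure 67.6% and 66.3% of the 4276 probes were detected in the myofibroblast samples, against 68.5% and 67.2% in fibroblasts and 71.8% and 74.6% in homogenate. Probes for coding RefSeq transcripts (NM accessions, 29638 probes) were detected more often, at 71.8% to 73.4% in the sorted samples and 78.1% and 79.6% in homogenate. Probes for non-coding RefSeq transcripts (NR accessions, 2477 probes) were detected less often, at 45.3% to 53.8% over the 6 arrays. Over all 56605 probes the shares were 65.0% and 63.9% in myofibroblasts, 65.6% and 64.7% in fibroblasts and 70.1% and 72.2% in homogenate. The coordinate-named loci thus lay between the coding and non-coding RefSeq classes on each of the 6 arrays, and slightly above the whole array.

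**Figure D1:**
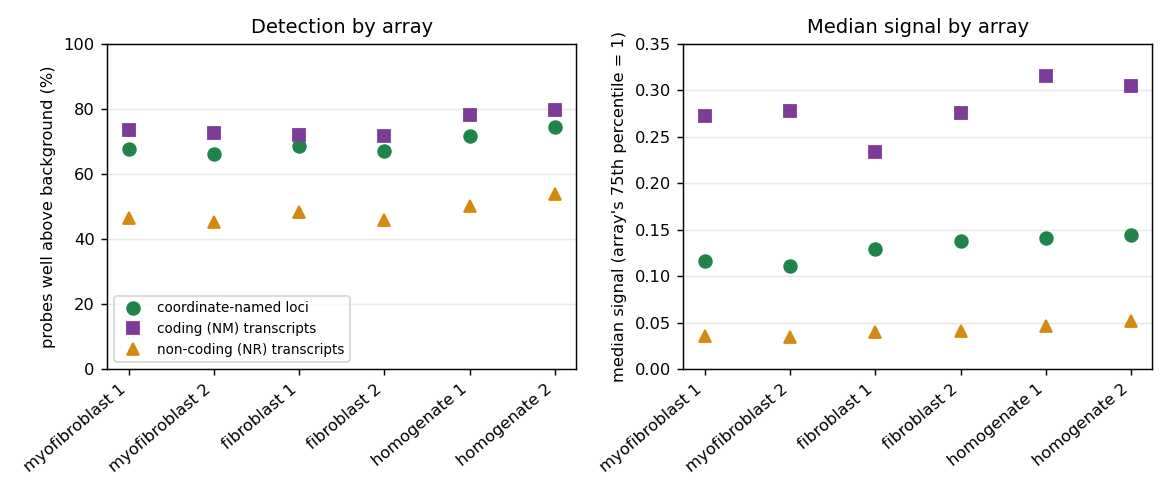
The left panel shows the percentage of probes well above background on each of the 6 arrays, and the right panel the median signal, with the array's 75th percentile set to 1. Circles are the coordinate-named loci (66.3% to 74.6% detected, median 0.111 to 0.144), squares coding transcripts (71.8% to 79.6%) and triangles non-coding RefSeq transcripts (45.3% to 53.8%).

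Signals below are given in units of the array's own 75th percentile over all spots that are not controls, so a signal of 1 is that of a spot brighter than most. The median member signal was 0.116 and 0.111 in myofibroblasts, 0.129 and 0.138 in fibroblasts and 0.141 and 0.144 in homogenate. Between 15.1% and 17.3% of the members had a signal over 1, against 28.5% to 30.1% of the coding probes. Probes differ in how well they bind, so these figures describe spots on the arrays and do not rank transcripts by amount. The members held 3.54% to 4.31% of the summed signal.

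Detection was stable across the groups for most of the set. Of the 4276 probes, 2378 (55.6%) were detected on all 6 arrays and 689 (16.1%) on none. The same shares were 63.3% and 13.5% among coding probes, and 35.1% of the non-coding RefSeq probes were detected on all 6. Over the whole array, 30581 of 56605 probes were detected on all 6. Counted by locus, with 1 probe detected on both arrays of a group as the criterion, 2027 loci were detected in myofibroblasts, 2064 in fibroblasts and 2223 in homogenate. In all, 2355 loci were detected in at least 1 group, 1860 in each of the 3 groups and 739 in none.

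Some probes were detected on both arrays of 1 group and on no array of the others: 38 (0.889%) for myofibroblasts, 21 (0.491%) for fibroblasts and 93 (2.17%) for homogenate. Among coding probes these shares were 0.644%, 0.341% and 3.40%. A further 11 probes (0.257%) were detected in both sorted groups and on neither homogenate array, against 0.351% of coding probes. Another 75 (1.75%) were detected in fibroblasts and homogenate but on neither myofibroblast array, against 0.911%, and 35 (0.819%) in myofibroblasts and homogenate but on neither fibroblast array, against 1.09%. These patterns were counted beside coding probes only, so they do not show whether the members differ from the array as a whole. Longer loci were detected more often: 44.5% of the probes of loci under 1000 bp were detected on all 6 arrays, 54.7% for loci from 1000 to under 10000 bp and 60.7% for loci of 10000 bp or more. By chromosome this share ran from 49.6% on chromosome 1 to 65.1% on chromosome 17.

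Replicate arrays differed most among fibroblasts. Over members detected on both arrays of a group, the log2 differences between them had an SD of 0.63 in myofibroblasts, 0.82 in fibroblasts and 0.46 in homogenate. Differences over 2-fold between replicate arrays affected 10.2%, 17.2% and 4.62% of these probes. Marker genes were summed to check the labels. Summed fibroblast markers (Pdgfra, Col1a1, Col1a2, Dcn, Tcf21) were 863 and 893 in myofibroblasts, 458 and 352 in fibroblasts and at most 37.0 in homogenate. That list set the sorted samples apart from homogenate and did not mark the fibroblast group. Myofibroblast markers (Acta2, Tagln, Postn, Cthrc1, Itga5) were 297 and 332 in myofibroblasts against 18.6 and 28.8 in fibroblasts. All 5 of each list were above background on every array.

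The main comparison set myofibroblasts against steady-state fibroblasts. Of 2938 members tested, 341 (11.6%) were called at an adjusted p under 0.05, with 118 higher and 223 lower in myofibroblasts. Over all 37115 probes tested on the array the call rate was 14.0%, with 6.40% higher and 7.63% lower, so the members' rate was slightly under the background. The calls fell in 303 loci, 99 of them with higher and 203 with lower probes only. Among the 2378 members detected on all 6 arrays, 215 (9.04%) were called, against 11.6% of all probes so detected. The median log2 difference of those 2378 members was -0.20, against -0.09 for all probes and 0.02 for coding probes detected on all 6 arrays.

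The excess of lower over higher calls depended on how arrays were scaled. Scaling each array to its median in place of its 75th percentile gave 170 higher and 171 lower, and it moved the median difference of all tested probes from -0.11 to 0.05. Quantile normalization gave 114 and 197, normexp background correction 217 and 371, and the authors' own values 86 and 559, with a median of -0.52 over all probes. The count of calls also depended on single arrays: it was 72 without either homogenate array, which serve here to estimate the spread, 101 and 146 without the second and the first myofibroblast array, 170 without the first fibroblast array and 636 without the second. Markers of other cell types also moved between the sorted groups. The dividing-cell markers Top2a, Mki67 and Ccnb1 summed to 10.3 and 9.73 in myofibroblasts and to 0.284 and 0.207 in fibroblasts, where only 1 of the 3 was above background. The 6 epithelial markers summed to 11.6 and 17.5 against 121 and 71.8, and the 3 pericyte markers to 2.55 and 3.63 against 12.9 and 9.77. Their part in the results was not tested.

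**Figure D2:**
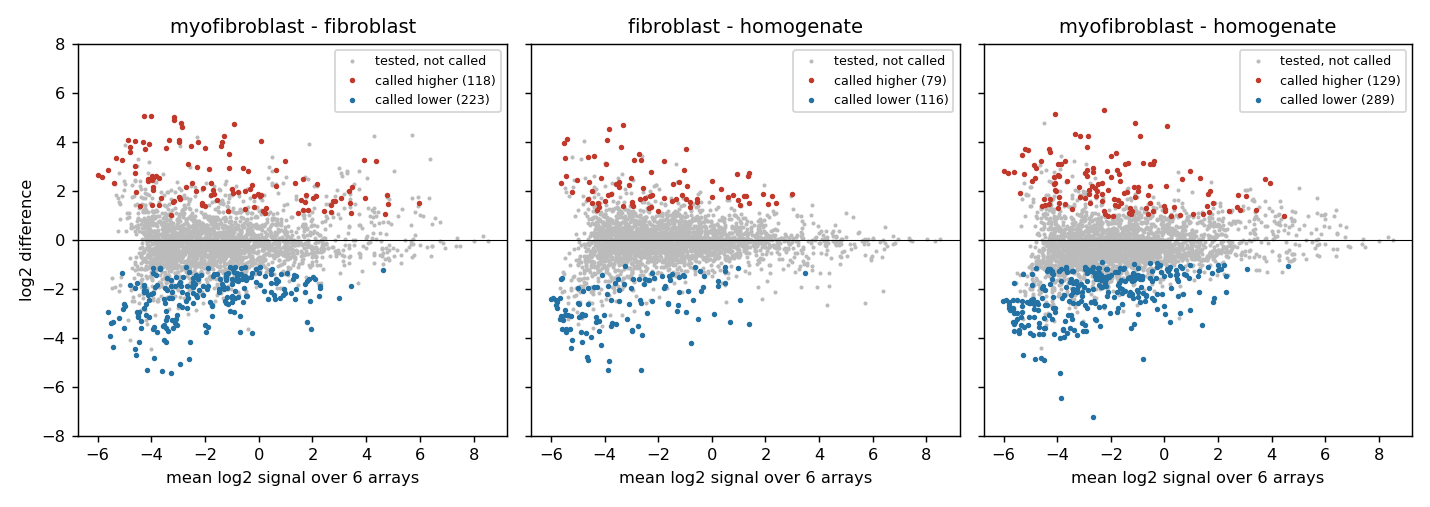
Each point is 1 tested member probe, with its mean log2 signal over the 6 arrays on the x axis and its log2 difference on the y axis, for the 3 comparisons. Red points were called higher in the first-named group (118, 79 and 129) and blue points lower (223, 116 and 289), at an adjusted p under 0.05.

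On chromosome 3, a locus of 17676 bp at chr3:87757295-87774970 rose on 1 strand. It has 5 probes, which are shown to compare its strands. Probe A_30_P01021008, to R, had a signal of 7.14 and 8.76 in myofibroblasts, 0.543 and 0.423 in fibroblasts and 0.456 and 0.216 in homogenate. The myofibroblast arrays stood above the other 4, and fibroblasts and homogenate overlapped. The log2 difference between the sorted groups was 4.04 ± 0.43 (limma adjusted p = 0.0105). Here and below, ± gives the SE from the limma fit of all 6 arrays, with 2 arrays per group. It pools the spread of the 3 groups and is not the spread of the 2 compared groups alone. The other 3 R probes rose as well. Probe A_30_P01031372 read 1.54 and 2.11 in myofibroblasts, 0.0995 and 0.129 in fibroblasts and 0.0428 and 0.0477 in homogenate, a difference of 3.99 ± 0.29 (adjusted p = 0.00573). Differences of 4.60 ± 0.53 for A_30_P01021646 and 4.89 ± 0.54 for A_30_P01021657 had adjusted p = 0.0121 and 0.0111, and both were above background on 1 fibroblast array only. The F probe of the same locus, A_30_P01020627, read 4.87 and 5.43 in myofibroblasts, 6.64 and 4.98 in fibroblasts and 5.54 and 5.62 in homogenate and differed by -0.16 ± 0.26 (adjusted p = 0.686). A shorter locus on R inside it, chr3:87764926-87769766, read 0.797 and 0.738 in myofibroblasts, 0.947 and 0.973 in fibroblasts and 0.800 and 0.804 in homogenate, a difference of -0.32 ± 0.23 (adjusted p = 0.349). The rise was therefore seen with 4 probes of 1 strand and in neither of the other probes of the region. Against homogenate the 4 R probes were also called higher in myofibroblasts, by 5.32 ± 0.29 for A_30_P01031372 and 4.65 ± 0.43 for A_30_P01021008. Leaving out any 1 array kept the calls of both named probes, with an adjusted p of at most 0.0465.

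The pattern on chromosome 17 ran the other way and covered both strands. The locus chr17:26911397-26917047 has 7 probes and the overlapping chr17:26911032-26912366 has 3, and 8 of these 10 were called lower in myofibroblasts. Probe A_30_P01019026, to R, read 1.28 and 1.49 in myofibroblasts, 9.06 and 4.06 in fibroblasts and 4.46 and 3.83 in homogenate, a difference of -2.14 ± 0.44 (adjusted p = 0.0394). Probe A_30_P01030991, to F, read 2.03 and 1.45 in myofibroblasts, 6.27 and 4.72 in fibroblasts and 4.21 and 4.61 in homogenate, a difference of -1.66 ± 0.30 (adjusted p = 0.0310). On both probes the myofibroblast arrays were the lowest. Differences of the 10 probes ran from -2.38 to -1.28, and those that missed the threshold were A_30_P01019886 at -1.51 ± 0.35 (adjusted p = 0.0516) and A_30_P01025353 at -1.28 ± 0.36 (adjusted p = 0.0769). Between fibroblasts and homogenate none of the 10 was called, with differences from -0.10 to 0.55. These probes tile 2 overlapping loci and are repeated readings of 1 place, not 10 independent results.

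**Figure D3:**
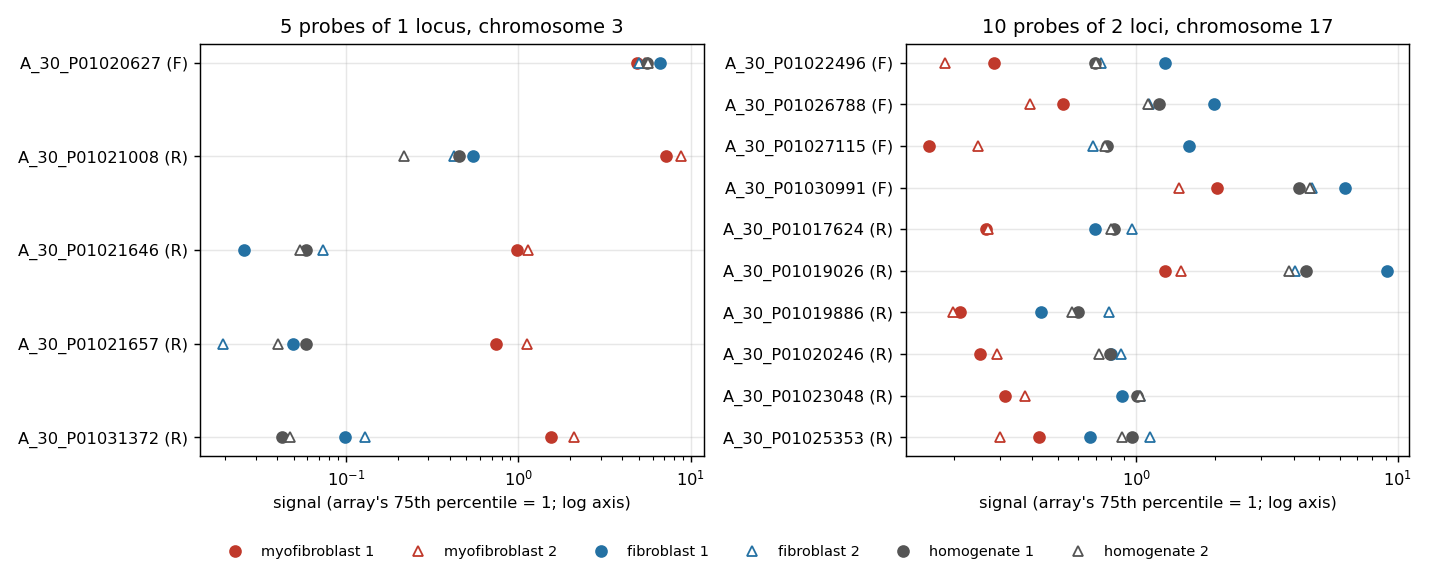
Signals of the probes of the chromosome 3 locus (left, 5 probes) and of the 2 overlapping chromosome 17 loci (right, 10 probes), on a log axis with the array's 75th percentile at 1, and 1 symbol for each of the 6 arrays. On the left the 4 R probes have both myofibroblast symbols above the other 4 and the F probe does not, and on the right the myofibroblast symbols are the lowest in each row.

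Among members above background on all 4 arrays of the sorted groups, the largest rise was at chr4:54851872-54866706 on R, with 1 probe. It read 3.52 and 4.95 in myofibroblasts, 0.0890 and 0.280 in fibroblasts and 0.382 and 0.130 in homogenate, a difference of 4.72 ± 0.76 (adjusted p = 0.0242). The fibroblast replicates differed by about as much as the homogenate ones, and the call was lost on leaving out any array but the second fibroblast one (adjusted p up to 0.0933). At chr9:14460976-14488051 the F probe read 1.61 and 1.35 in myofibroblasts, 0.0728 and 0.0841 in fibroblasts and 0.481 and 0.726 in homogenate. The 3 groups did not overlap there, with homogenate between the sorted groups, and the difference of 4.24 ± 0.31 (adjusted p = 0.00564) was still called without any 1 array. Of its R probes, A_30_P01018123 was called as well, at least 3.62-fold higher than in fibroblasts, where it was not above background (adjusted p = 0.00903). The other, A_30_P01028108, was not called, at 1.23 ± 0.56 (adjusted p = 0.185). Where a probe was not above background on any array of the dimmer group, the fold is a bound of this kind. The brighter group's mean was set against the lowest signal still well above background on each array of the dimmer group. Where the probe's own signal on that array was higher, that signal was used instead. Undetected probes can thus be brighter than that lowest signal, so "at least" is a nominal bound and not a strict limit.

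At chr5:23195569-23218551 an R probe, A_30_P01022390, read 1.76 and 2.33 in myofibroblasts, 0.0800 and 0.205 in fibroblasts and 0.240 and 0.215 in homogenate, a difference of 3.98 ± 0.50 (adjusted p = 0.0143, and up to 0.0607 without the second myofibroblast or either homogenate array). Its F probe, A_30_P01021855, was not above background on either fibroblast array. It read 0.674 and 0.240 in myofibroblasts, at least 9.25-fold higher, and that call was lost without any array but the second fibroblast one (adjusted p up to 0.109). A second R probe of the locus, A_30_P01019583, read 0.0796 and 0.197 in myofibroblasts, 0.220 and 0.274 in fibroblasts and 0.191 and 0.0786 in homogenate and differed by -0.97 ± 0.62 (adjusted p = 0.310). So 2 of the 3 probes rose and the third lay lower in myofibroblasts without passing the test.

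On chromosome 18, 2 neighbouring regions held probes that rose. Locus chr18:63463356-63463691, on F, read 1.83 and 1.20 in myofibroblasts, 0.0592 and 0.182 in fibroblasts and 0.466 and 0.263 in homogenate, a difference of 3.84 ± 0.64 (adjusted p = 0.0263, and up to 0.0868 without any array but the second fibroblast one). It lies in the region chr18:63455560-63548085, where 5 of 7 probes were called higher in myofibroblasts. Of the others called, A_30_P01030486 and A_30_P01025444 were not above background in fibroblasts and were at least 7.24-fold and 2.42-fold higher, A_30_P01031906 was above it on 1 fibroblast array and A_30_P01018099 on both. The 2 that missed the threshold were A_30_P01018744, at 0.91 ± 0.44 (adjusted p = 0.205), and A_30_P01027030, which was also not above background in fibroblasts (adjusted p = 0.131). The R probe at chr18:63355660-63369610, in a region that ends 85.9 kb before that one, was not above background in fibroblasts and at least 11.8-fold higher in myofibroblasts (0.576 and 0.442). Its adjusted p of 0.0148 rose to at most 0.0565 without either myofibroblast array or the first fibroblast one, which ended the call. An F probe of that locus also rose, by 2.13 ± 0.33 (adjusted p = 0.0227), and the R probe of a locus inside it, A_30_P01022389, was not called, at 1.58 ± 0.43 (adjusted p = 0.0689).

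Further rises were bounded because fibroblasts were not above background. Signal from the F probe of chr13:15947521-15999246 was 0.384 and 0.784 in myofibroblasts, 0.0223 and 0.0125 in fibroblasts and 0.111 and 0.220 in homogenate and was at least 12.8-fold higher (adjusted p = 0.0116). The R probe of that locus, A_30_P01024409, differed by -0.89 ± 0.46 (adjusted p = 0.229). At chr18:60789616-60807973 an R probe read 0.291 and 0.773 in myofibroblasts, at least 10.8-fold above fibroblasts (adjusted p = 0.0279) and at least 12.2-fold above homogenate. The first of these calls was lost without the second myofibroblast, the first fibroblast or either homogenate array (adjusted p up to 0.0881), the second without the first homogenate array (adjusted p = 0.0603). A second R probe of that locus, A_30_P01020671, was not called against fibroblasts (1.83 ± 0.48, adjusted p = 0.0639) and was against homogenate (2.17 ± 0.48, adjusted p = 0.0357). The region chr16:84702353-84710928 had 4 probes, 2 to each strand, and all 4 were called higher in myofibroblasts in both comparisons. Its probe A_30_P01033281 read 0.377 and 0.388 in myofibroblasts, 0.0123 and 0.0110 in fibroblasts and 0.0327 and 0.0315 in homogenate, and its probe A_30_P01017643 read 2.21 and 1.82 in myofibroblasts, 0.287 and 0.234 in fibroblasts and 0.504 and 0.617 in homogenate.

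The largest fall measured on both sides lay on chromosome 10. The F probe at chr10:93774693-93893616 read 0.197 and 0.164 in myofibroblasts, 2.82 and 2.22 in fibroblasts and 1.24 and 1.30 in homogenate, a difference of -3.80 ± 0.26 (adjusted p = 0.00518, at most 0.0306 without any 1 array). The overlapping chr10:93819821-93976621, also F, read 0.123 and 0.0428 in myofibroblasts, 1.28 and 0.582 in fibroblasts and 0.334 and 0.278 in homogenate, a difference of -3.57 ± 0.64 (adjusted p = 0.0300). That call did not hold without the second myofibroblast, the first fibroblast or either homogenate array (adjusted p up to 0.0899). An R probe in the same region, A_30_P01021069, was also called lower at -2.26 ± 0.30 (adjusted p = 0.0165), and the other 2 probes of the region were not called.

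At chr1:74084292-74138492 1 of 3 probes of the region was called. The R probe read 0.236 and 0.0991 in myofibroblasts, 2.67 and 1.64 in fibroblasts and 0.677 and 0.837 in homogenate, a difference of -3.77 ± 0.51 (adjusted p = 0.0170, and up to 0.0624 without the first fibroblast or either homogenate array). The F probe of the same locus, A_30_P01032937, read 10.1 and 10.7 in myofibroblasts, 12.7 and 11.7 in fibroblasts and 8.78 and 8.86 in homogenate and differed by -0.23 ± 0.23 (adjusted p = 0.507). A second R probe, A_30_P01024987, to a shorter locus inside it, differed by -0.01 ± 0.57 (adjusted p = 0.989). At chr16:21794415-21815365 the R probe read 1.31 and 0.617 in myofibroblasts, 10.7 and 7.84 in fibroblasts and 5.05 and 5.46 in homogenate, a difference of -3.35 ± 0.43 (adjusted p = 0.0151, and up to 0.0575 without the first fibroblast or either homogenate array), and the F probe of that locus, A_30_P01024563, was called lower too at -2.53 ± 0.35 (adjusted p = 0.0177). The F probe of an overlapping locus, A_30_P01027776, was not, at 0.18 ± 0.26 (adjusted p = 0.640).

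The R probe at chr8:26345571-26346095 was uneven between replicates. It read 1.52 and 0.947 in myofibroblasts, 31.6 and 7.08 in fibroblasts and 3.50 and 2.94 in homogenate, with both fibroblast arrays above the other 4 but far from each other. Its difference of -3.64 ± 0.75 (adjusted p = 0.0397) was lost without any array but the second fibroblast one (adjusted p up to 0.143). Among the other 3 probes of that region, A_30_P01023279 was called lower at -3.10 ± 0.60 (adjusted p = 0.0354), A_30_P01023409 was not above background in myofibroblasts and at least 3.39-fold lower (adjusted p = 0.0132), and A_30_P01025436 missed the threshold at -3.64 ± 0.89 (adjusted p = 0.0561). At chr9:78104935-78116974 the F probe was steadier. It read 0.157 and 0.207 in myofibroblasts, 1.42 and 1.72 in fibroblasts and 0.866 and 0.829 in homogenate, a difference of -3.12 ± 0.27 (adjusted p = 0.00723, at most 0.0353 without any 1 array).

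**Figure D4:**
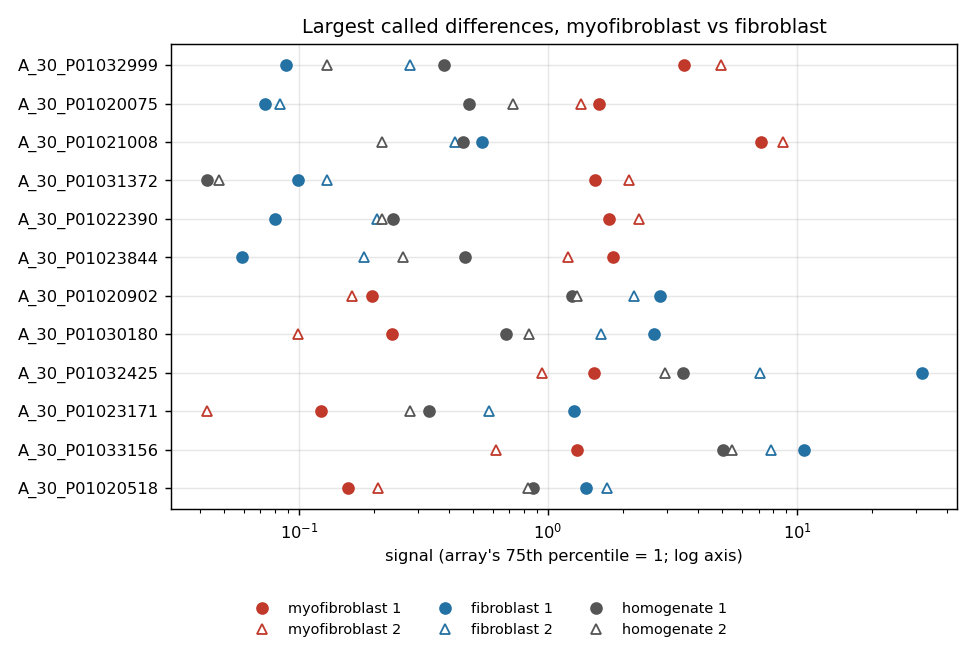
Signals of the 12 members with the largest called differences between the sorted groups among those above background on all 4 arrays, on a log axis with the array's 75th percentile at 1. Each row is 1 probe with 1 symbol for each of the 6 arrays: in the upper 6 rows both myofibroblast symbols lie above both fibroblast symbols, in the lower 6 below them.

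In the 4 largest bounded falls the myofibroblast arrays were not above background. Locus chr6:93029101-93031007, on F, read 0.0160 and 0.0184 in myofibroblasts, 0.527 and 0.637 in fibroblasts and 0.211 and 0.236 in homogenate and was at least 14.3-fold lower in myofibroblasts than in fibroblasts (adjusted p = 0.00429). Signal from the F probe of chr16:23992037-24001037 was 0.539 and 0.510 in fibroblasts and 0.164 and 0.193 in homogenate and was at least 13.0-fold lower (adjusted p = 0.00557). Its R probe, A_30_P01021393, fell too, at -3.75 ± 0.59 (adjusted p = 0.0231), with 1 of 2 myofibroblast arrays above background. The R probe at chr3:127037711-127111912 read 0.337 and 0.691 in fibroblasts and 0.0982 and 0.100 in homogenate, at least 12-fold lower in myofibroblasts (adjusted p = 0.00679), and none of the other 6 probes of its region was called. At chr8:122945743-122946192 the F probe read 0.704 and 0.261 in fibroblasts and was at least 10.5-fold lower (adjusted p = 0.0196, and up to 0.0692 without either myofibroblast or either homogenate array). Of the other 7 probes of its region, A_30_P01024515 was called lower at -1.53 ± 0.25 (adjusted p = 0.0251) and the rest were not called.

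Fibroblasts were next set against homogenate of untreated lung. Of 3044 members tested, 195 (6.41%) were called, 79 higher and 116 lower in fibroblasts, in 179 loci. The call rate over all 39642 probes tested was 13.4%, with 4.93% higher and 8.52% lower. Among members detected on all 6 arrays 93 of 2378 (3.91%) were called, against 8.87% of all probes so detected. In each brightness quartile of the probes detected on all 6 arrays, the members' call rate (3.03%, 4.85%, 4.47% and 3.41% from dimmest to brightest) was below that of coding probes (7.44%, 11.4%, 11.7% and 12%). These rates are a description, since probes of a region are not independent. Median scaling turned the split to 121 higher and 95 lower, quantile normalization to 121 and 106, normexp to 141 and 131 and the authors' own values to 66 and 127. The count was 59 and 72 without the second and the first homogenate array and 403 without the second fibroblast array.

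Homogenate also holds the other cell types of the lung. Its 6 epithelial markers, all above background, summed to 837 and 826, against 11.6 to 121 in the sorted samples, where 4 or 5 were above background and Cdh1 was not. Its 4 endothelial markers summed to 35.2 and 32.1 against 0.0808 to 1.46, with 1 or 2 above background in the sorted samples and Kdr on none of them. Of 5 leukocyte markers (Ptprc, Cd68, Lyz2, Itgam, Cd3e), 3 to 5 were above background in the sorted samples and all 5 in homogenate, and their sums were close, at 152 to 174 against 179 and 185. Ptprc was above background on 1 of the 4 sorted arrays. The part of these cell types in the differences from homogenate was not tested. In such mixed samples, fewer cells of a type and less RNA per cell cannot be told apart. Both homogenate arrays lay in another row of the slide than the sorted samples, so row and homogenate cannot be told apart either.

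Among members above background on all 4 arrays compared, the largest rise in fibroblasts over homogenate was at chr9:68349343-68411643 on R, which read 0.455 and 0.658 in myofibroblasts, 2.36 and 1.32 in fibroblasts and 0.123 and 0.151 in homogenate, a difference of 3.69 ± 0.40 (adjusted p = 0.00559). Of the F probes of that locus, A_30_P01033149 was not above background in homogenate and at least 7.03-fold higher in fibroblasts (adjusted p = 0.00237), and A_30_P01027858 was too dim to be tested. At chr16:77670599-77691642 the F probe read 0.165 and 0.212 in myofibroblasts, 1.42 and 0.840 in fibroblasts and 0.0792 and 0.169 in homogenate, a difference of 3.24 ± 0.49 (adjusted p = 0.0152, and up to 0.0689 without the first fibroblast or the first homogenate array). Both probes of the overlapping chr16:77682803-77708453, 1 to each strand, were called higher in fibroblasts as well, and the 3 probes were all called lower in myofibroblasts than in fibroblasts. Locus chr3:86961614-86966377, on F, read 0.183 and 0.193 in myofibroblasts, 0.530 and 0.609 in fibroblasts and 0.0763 and 0.0905 in homogenate, a difference of 2.77 ± 0.25 (adjusted p = 0.00343), with all 3 groups apart.

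A stretch of chromosome 12 held called probes in 2 regions 2.47 kb apart. Signal from the F probe of chr12:110842154-110883594 was 0.306 and 0.640 in myofibroblasts, 1.14 and 1.61 in fibroblasts and 0.194 and 0.184 in homogenate, a difference of 2.84 ± 0.43 (adjusted p = 0.0157). That call was lost without the first fibroblast or either homogenate array (adjusted p up to 0.102). The F probe at chr12:110894095-110899517 was not above background in homogenate, at 0.0434 and 0.0389, and read 0.335 and 0.641 in fibroblasts. It was 11.3-fold higher there (adjusted p = 0.00902, and up to 0.0708 without either homogenate array). Both homogenate signals exceeded the lowest one above background, so this is the measured fold and not a bound. In the first region 3 of 5 tested probes and in the second 3 of 4 were called higher in fibroblasts. One R probe of the second region, A_30_P01021145, had another order: it read 0.0589 and 0.0379 in myofibroblasts, 0.226 and 0.312 in fibroblasts and 0.255 and 0.298 in homogenate and was lower in myofibroblasts than in both other groups, at -2.49 ± 0.34 and -2.54 ± 0.34 (adjusted p = 0.0173 and 0.00907). At chr9:43926204-43928496 the F probe was also not above background in homogenate, and it was at least 9.52-fold higher in fibroblasts, at 0.459 and 0.317 (adjusted p = 0.00579, and 0.0519 without the second homogenate array, which ended the call).

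The largest fall in fibroblasts among members so measured was at chr13:52678544-52680308 on F, where homogenate stood alone. The probe read 0.0401 and 0.00928 in myofibroblasts, 0.0835 and 0.0614 in fibroblasts and 3.0 and 2.75 in homogenate, a difference of -5.33 ± 0.71 (adjusted p = 0.0107, and up to 0.0731 without the first fibroblast or either homogenate array). It was not above background in myofibroblasts and at least 71.0-fold lower there than in homogenate (adjusted p = 0.00382). Locus chr7:113768215-113783490, on R, read 0.213 and 0.125 in myofibroblasts, 0.213 and 0.307 in fibroblasts and 4.66 and 4.74 in homogenate, differences of -4.20 ± 0.37 and -4.85 ± 0.37 for fibroblasts and myofibroblasts against homogenate (adjusted p = 0.00326 and 0.00195). The F probe of that locus, A_30_P01019859, was above background in homogenate alone, at least 2.29-fold and 2.43-fold lower in the sorted groups (adjusted p = 0.00205 and 0.00172). At chr6:4841700-4847400 the F probe read 1.16 and 1.15 in myofibroblasts, 1.38 and 1.06 in fibroblasts and 13.8 and 12.2 in homogenate, a difference of -3.43 ± 0.26 (adjusted p = 0.00231), and the R probe, A_30_P01017482, followed at -1.28 ± 0.23 (adjusted p = 0.0267). At both loci each homogenate array lay above all 4 sorted samples.

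The region chr3:146629425-146649125 separated all 3 groups. Its R probe A_30_P01033598 read 1.91 and 2.10 in myofibroblasts, 0.377 and 0.509 in fibroblasts and 4.74 and 4.26 in homogenate, so that homogenate was highest, fibroblasts lowest and myofibroblasts between. The differences were -3.36 ± 0.27 for fibroblasts against homogenate (adjusted p = 0.00266) and 2.19 ± 0.27 for myofibroblasts against fibroblasts (adjusted p = 0.0139). Its F probes A_30_P01033124 and A_30_P01033574 had the same order on the 6 arrays, with -3.01 ± 0.24 and -3.22 ± 0.32 (adjusted p = 0.00267 and 0.00441). Below background in both sorted groups were the R probe at chr2:155667801-155668175, at 0.404 and 0.428 in homogenate and at least 9.70-fold lower in fibroblasts (adjusted p = 0.00263), and the F probe at chr14:14688472-14747272, at 0.388 and 0.386 in homogenate and at least 9.03-fold lower (adjusted p = 0.00675, and up to 0.0548 without either homogenate array).

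Myofibroblasts against homogenate gave the most calls, although gate, treatment and tissue mixture all differ there. Of 3083 members tested, 418 (13.6%) were called, 129 higher and 289 lower, in 369 loci. The rate over all 39781 probes tested was 20.4%, with 7.62% higher and 12.8% lower. Among members detected on all 6 arrays 241 (10.1%) were called, against 15.0% of all probes so detected, and their median difference was -0.23 against 0.01 for all probes. Median scaling reversed the split to 312 higher and 162 lower, and it moved the median difference of all probes tested from -0.13 to 0.32. Quantile normalization gave 200 and 279, normexp 239 and 401 and the authors' own values 84 and 877. The count ran from 109 without the second homogenate array to 661 without either fibroblast array, and it was 127 without the first homogenate array. All 3 comparisons share arrays, so their calls are not independent of one another.

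Beside the chromosome 3 probes and chr4:54851872-54866706 (4.23 ± 0.76, adjusted p = 0.0209, and up to 0.101 without either myofibroblast or the second homogenate array), the largest rise was at chr6:82608223-82669023 on F. It read 2.80 and 2.72 in myofibroblasts, 0.329 and 0.400 in fibroblasts and 0.0901 and 0.114 in homogenate, a difference of 4.77 ± 0.26 (adjusted p = 0.00102). Fibroblasts lay between the other groups there and differed from both. The R probe of that locus, A_30_P01032010, was not called (0.74 ± 0.52 against fibroblasts, adjusted p = 0.352). The R probe at chr16:46384974-46391331, one of the largest falls beside those on chromosomes 7 and 13, read 0.0777 and 0.139 in myofibroblasts, 0.805 and 0.417 in fibroblasts and 1.36 and 1.16 in homogenate, a difference of -3.60 ± 0.46 (adjusted p = 0.00798, and up to 0.0595 without either homogenate array), and the F probe of that locus, A_30_P01022771, was called lower too at -2.96 ± 0.45 (adjusted p = 0.0126). Signal from the R probe of chr9:88575075-88611650 was 0.100 and 0.0551 in myofibroblasts, 0.104 and 0.112 in fibroblasts and 0.819 and 0.875 in homogenate, a difference of -3.51 ± 0.35 (adjusted p = 0.00410). A second R probe of that locus, A_30_P01029192, read 2.84 and 2.88 in myofibroblasts, 4.27 and 2.76 in fibroblasts and 4.89 and 5.41 in homogenate and was not called (-0.85 ± 0.30, adjusted p = 0.109). The R probe of an overlapping locus, A_30_P01021412, was above background in homogenate alone and called lower (adjusted p = 0.0175).

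The R probe at chr5:77188300-77205150 read 0.0576 and 0.0620 in myofibroblasts, 0.0297 and 0.0905 in fibroblasts and 0.664 and 0.681 in homogenate, a difference of -3.49 ± 0.55 (adjusted p = 0.0145, and up to 0.0899 without either myofibroblast or either homogenate array). Its F probe, A_30_P01022937, was lower too at -2.71 ± 0.27 (adjusted p = 0.00382). At chr1:87613025-87631604 the F probe read 0.934 and 1.19 in homogenate and was not above background in myofibroblasts, at least 26.1-fold lower (adjusted p = 0.0180, and up to 0.105 without either myofibroblast or either homogenate array). The probe A_30_P01033281 of the chromosome 16 region described above was at least 9.81-fold higher in myofibroblasts than in homogenate (adjusted p = 0.00137). The region chr1:175654606-175672031, singled out after its values were seen, had 6 of 6 probes called lower in myofibroblasts than in homogenate and 3 of them lower than in fibroblasts.

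The 6 members of highest mean signal varied little, and none was called. The F probe at chr18:47313842-47315840 read 371 and 355 in myofibroblasts, 368 and 377 in fibroblasts and 362 and 369 in homogenate. At chr6:92040526-92041319 the F probe read 340.3 and 349 in myofibroblasts, 331 and 282 in fibroblasts and 318 and 317 in homogenate, and the R probe at chr5:52461266-52541416 read 262 and 245 in myofibroblasts, 251 and 277 in fibroblasts and 259 and 257 in homogenate. The next were the F probes at chr5:105072936-105074001, at 144 or more on each array, at chr17:71242333-71273533, from 163 to 173, and at chr17:13806767-13824342, from 145 to 185. At chr5:105072936-105074001 and chr17:13806767-13824342 both myofibroblast arrays lay below the other 4, and at chr17:71242333-71273533 the 3 groups did not overlap. The log2 differences of the 6 probes lay between -0.29 and 0.17 in the 3 comparisons, with a standard error of up to 0.24. No spot on any array was saturated.

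Loci with many probes show how far probes of 1 place differ. chr12:45415565-45423519, with 8 probes, was read lowest on the second myofibroblast array by each of them, at 0.0432 to 0.233. The first myofibroblast array gave 0.182 to 0.426, the fibroblast arrays 0.168 to 0.825 and the homogenate arrays 0.184 to 1.07. None of the 8 was called between the sorted groups (adjusted p = 0.102 to 0.384), while a probe to a shorter locus inside it, A_30_P01019779, was called at -2.36 ± 0.37 (adjusted p = 0.0228). Of 6 probes of chr18:35967933-35986564, 1 was called lower in myofibroblasts, A_30_P01019154 at -1.87 ± 0.24 (adjusted p = 0.0147), and the others lay between -1.07 ± 0.32 and -0.13 ± 0.48. Over the array, 119 pairs of member probes shared a locus and a strand and were detected on all 6 arrays. Their differences between myofibroblasts and fibroblasts had a median gap of 0.40 on the log2 scale and had the same sign in 72 pairs (60.5%). For the other comparisons the same sign was found in 58.8% and 68.1%. Of the 2378 members detected on all 6 arrays, 1473 lay lower in myofibroblasts than in fibroblasts, so unrelated probes would often share a sign too. In the 3, 1 and 3 pairs with both probes called, both had the same direction.

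The strands of a locus were compared by their differences between groups, since levels of 2 probes cannot be set against each other. With the brighter probe to stand for each strand, 553 of the 812 loci with both strands were detected on both strands in at least 1 group. Of these, 360 were so detected in all 3 groups. Another 190 loci were detected on 1 strand only and 64 on neither. In the few remaining loci each strand was detected, but never both in the same group. Of 510 loci tested on both strands between myofibroblasts and fibroblasts, the strands had the same sign in 354 (69.4%). Of all 2938 members tested there, 1788 lay lower in myofibroblasts, so unrelated probes would often share a sign too. Both strands were called at 24 loci, in the same direction at 23, and 1 strand alone at 81. The exception, singled out after its values were seen, was chr7:67111261-67120645. Its F probe, A_30_P01018753, was not above background in myofibroblasts and read 0.0509 and 0.0936 in fibroblasts, at least 1.71-fold lower in myofibroblasts (adjusted p = 0.0261). Its R probe, A_30_P01023535, read 0.0525 and 0.0782 in myofibroblasts and was not above background in fibroblasts, at least 1.49-fold higher (adjusted p = 0.0279). Against homogenate, both strands were called in fibroblasts at 11 loci, all in the same direction, and in myofibroblasts at 27, in the same direction at 26.

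**Figure D5:**
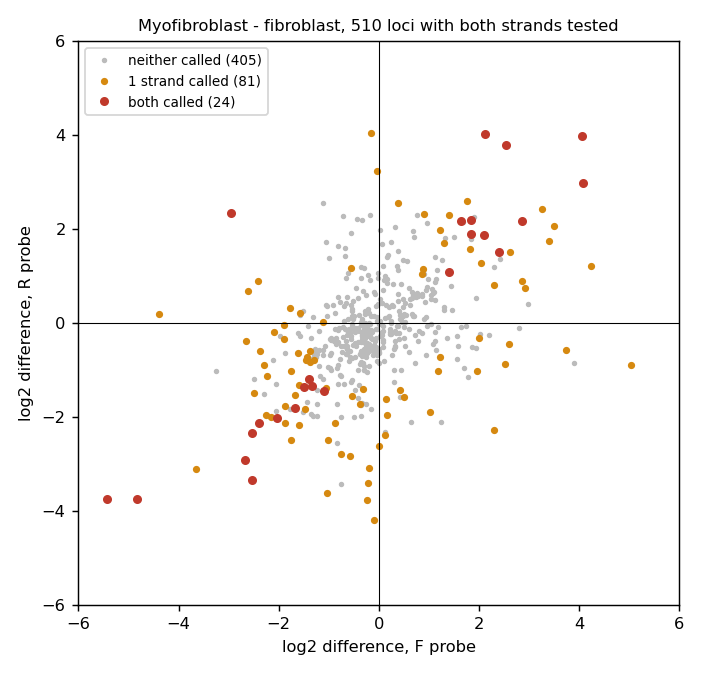
Each point is 1 of the 510 loci with both strands tested between myofibroblasts and fibroblasts, with the log2 difference of its F probe on the x axis and of its R probe on the y axis. Colours mark loci with neither strand called, 1 called (81) and both called (24), of which 23 lie in the upper right or lower left quadrant.

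Signals are given side by side for 4 loci chosen for the widest gap between their strands' signals; how far such a gap comes from how well each probe binds was not tested. The locus chr17:13806767-13824342 read 151 and 145 in myofibroblasts, 170.1 and 185 in fibroblasts and 166 and 171 in homogenate on F and 0.0561 and 0.0791 in myofibroblasts, 0.0876 and 0.137 in fibroblasts and 0.242 and 0.146 in homogenate on R. The locus chr15:98842850-98853100 read 35.5 to 69.2 on R and 0.0956 to 0.131 on F, chr14:78924115-78938125 62.7 to 144 on F and 0.230 to 0.448 on R, and chr4:8351625-8358785 18.5 to 38.7 on R and 0.0497 to 0.193 on F. Each of these 8 probes was above background on all 6 arrays. Of the 24 comparisons they make, 1 was called: the F probe of the last locus was lower in myofibroblasts than in homogenate at -1.58 ± 0.36 (adjusted p = 0.0390).

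Calls within a region mostly ran the same way. Lower calls were the majority in each comparison, at 223 of 341 between the sorted groups. Against homogenate they were 116 of 195 for fibroblasts and 289 of 418 for myofibroblasts. Some agreement follows from that skew alone, and no share for unrelated probes was computed. Between the sorted groups 53 regions held 2 or more called probes, of which 21 had only higher and 31 only lower calls and 1 had both. Against homogenate the figures were 25 regions for fibroblasts, 8 higher and 17 lower, and 66 for myofibroblasts, 19 higher, 42 lower and 5 with both. Probes of a region can bind the same transcript, so these are repeated readings and not independent events.

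Named long non-coding RNA genes, read on the same arrays through their transcript accessions, give a point of comparison. Of 45 genes listed, 31 were matched to a probe and 26 were tested in each comparison. Between myofibroblasts and fibroblasts 1 was called higher and 6 lower, beside 6.40% and 7.63% of all probes tested, with a median difference of -0.41 against -0.11. The split depended on scaling: 1 higher and 1 lower with median scaling, 1 and 5 with quantile normalization, 2 and 8 with normexp and 1 and 7 with the authors' own values. H19, an imprinted maternally expressed RNA of growing tissues, read 2.09 and 2.21 in myofibroblasts, 0.0121 and 0.0148 in fibroblasts and 0.0971 and 0.131 in homogenate, and was at least 50.2-fold higher in myofibroblasts than in fibroblasts, where it was not above background (adjusted p = 0.00338). Meg3, another imprinted maternally expressed RNA, read 0.913 and 0.589 in myofibroblasts, 5.27 and 2.41 in fibroblasts and 0.220 and 0.242 in homogenate and was called lower at -2.28 ± 0.47 (adjusted p = 0.0392), though not with median scaling. Carmn, known from smooth muscle cells, and Fendrr, known from developing lung mesenchyme, were called lower at -3.46 ± 0.74 and -2.91 ± 0.59 (adjusted p = 0.0433 and 0.0388), though with neither median scaling nor quantile normalization. Carmn read 0.0630 and 0.142 in myofibroblasts, 1.74 and 0.625 in fibroblasts and 0.187 and 0.0787 in homogenate. Fendrr read 0.452 and 0.233 in myofibroblasts, 4.05 and 1.47 in fibroblasts and 6.77 and 7.13 in homogenate. Against homogenate Fendrr was called lower in myofibroblasts at -4.42 ± 0.59 (adjusted p = 0.00906), and under each of the other scalings. The other genes called lower than in fibroblasts were Peg13, Airn and Mir100hg, of which Airn alone was also called with median scaling. Fibroblasts against homogenate gave 4 higher and 1 lower (background 4.93% and 8.52%), with Mir100hg, the host transcript of a microRNA cluster, at 3.86 ± 0.32 (adjusted p = 0.00273), and myofibroblasts against homogenate gave 5 higher and 2 lower (background 7.62% and 12.8%). The first split was 3 to 6 higher and 1 lower under the other scalings, the second ran from 3 higher and 6 lower with the authors' own values to 9 higher and 1 lower with median scaling. Dnm3os, which is also a microRNA host, was higher than homogenate in both sorted groups (2.16 ± 0.38 and 2.64 ± 0.38, adjusted p = 0.0250 and 0.0115).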

How the data were processed

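The deposited scanner files of 6 arrays hold spot intensity per the file headers, made with Agilent Feature Extraction 12.0.3.1 on a design that uses build mm9 (NCBI37); its processed signal is already background-corrected. A second table, the authors' normalized intensity, equals that signal times 1 constant per array on nearly all probes and served as an alternative. Outlier spots were dropped and the remaining spots of each probe averaged. Each array was divided by its 75th percentile over all spots that are not controls, and log2 was taken. limma 3.58.1 (R 4.3.3) fitted all 56605 probes and 6 arrays in 3 groups, with 3 residual degrees of freedom. A comparison tested the probes that the scanner software marked as well above background on 2 of 2 arrays in one or both of its groups. Adjustment (Benjamini-Hochberg) ran over all of these, and a call is an adjusted p under 0.05. The number of arrays limits the precision.

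Named probes were those called with the largest differences (6 each way between the sorted groups, 4 otherwise) among probes above background on all 4 arrays, the largest bounded folds (4 and 2 each way), the 6 of highest mean signal, the loci with most called or most detected probes, and 4 strand pairs; most other probes of their loci and regions are given or counted with them. The members, the lists and the rules were chosen with earlier results of these data known. Named long non-coding RNA genes and markers were matched through transcript accessions. Alternatives were other scalings, the authors' table, normexp background correction (offset 50, on the median signal), other filters and thresholds, array weights, a replicate block and leaving out each array; the scalings were added for the named genes after seeing the data. The scripts were tested on simulated data. For the fit, these had the same noise level in all probes and groups, unlike the arrays, so the uneven spread between groups was not covered.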

Additional observations from a re-analysis of the deposited data

How the results depend on the processing

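Beside the scaling splits given above, the number of called members moved by over 1.5 times under these settings. The exception was the replicate block in the comparisons with homogenate, which moved it less. Between myofibroblasts and fibroblasts, 341 calls became 645 with the authors' table, 588 with normexp background correction, 169 when all 4 arrays had to be above background, 72 with only the 4 arrays compared, 35 at an adjusted p under 0.01, 208 with the replicate number as a block and 180 with array weights; leaving out 1 array gave 72 to 636. Between fibroblasts and homogenate, 195 calls became 68 with the filter on all 4 arrays and 57 at an adjusted p under 0.01; leaving out 1 array gave 59 to 403, and the block gave 154. Between myofibroblasts and homogenate, 418 calls became 961 with the authors' table, 640 with normexp, 161 with the filter on all 4 arrays, 661 with only the 4 arrays compared, 112 at an adjusted p under 0.01 and 809 with array weights; leaving out 1 array gave 109 to 661, and the block gave 285. Same-numbered samples deviated together weakly or not at all (r = 0.06, 0.02 and -0.01 over probes), so the numbers were not read as pairs. The 2355 loci detected became 2401 to 2482 without 1 array. They became 183 when 2 probes of a strand were required. The design limits that number, since 299 of the 3906 strands of loci have 2 or more probes. For the named probes, 622 values under alternatives stayed on their side of the threshold, 126 no longer passed it, and none changed direction; the most were lost without 1 homogenate array (19 each) and at an adjusted p under 0.01 (19), and none with quantile normalization, the authors' table, a variance trend or without the second fibroblast array. These probes were named for large called differences in the same data, so a kept direction was nearly fixed in advance. The filter on all 4 arrays removes by definition the probes with bounded folds, and 17 values no longer passed under it. Dim probes near background limit what can be read of low loci.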
